A study of Homo sapiens with 16 samples.

Results

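The 9 genes described here, HLA-B, HLA-C, HLA-E, HLA-F, B2M, TAP1, TAP2, NLRC5 and PSMB9, build and control MHC class I antigen presentation. They were chosen by name as class I genes and processing partners, and are 9 of 20033 protein-coding genes on chromosomes 1 to 22, X and Y. A gene was counted as carrying a peak where a deposited peak overlapped its annotated span extended by 5 kb on both sides. CUT&RUN, in which an antibody-tethered micrococcal nuclease frees chromatin fragments around its target, was done in LNCaP, a human prostate carcinoma line that responds to androgen. The antibodies were against H3K4me3, a histone mark of active promoters, against H3K27me3, the repressive mark written by Polycomb repressive complex 2, and against EZH2, the methyltransferase of that complex. The 4 conditions were a guide against PRKCI (sgPRKCI) with enzalutamide, sgPRKCI with DMSO, a control guide (sgC) with enzalutamide, and sgC with DMSO. Enzalutamide, an androgen receptor antagonist, was given at 10 µM for 72 h, and DMSO for 72 h. PRKCI encodes atypical protein kinase C iota; whether the sgPRKCI cells are a clone or a pool is not given in the sources used here. There was 1 library per antibody and condition, so no difference between conditions has a replicate check and no test across conditions was possible.

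MHC class I molecules show peptides from inside the cell to CD8+ T cells. The immunoproteasome cuts proteins into peptides, the TAP transporter moves them into the endoplasmic reticulum, and there they are loaded onto a heavy chain paired with beta-2 microglobulin. The class I promoters are known to be driven by NF-kappaB, by interferon regulatory factors and by the transactivator NLRC5, and repression of this pathway by Polycomb has been described in other tumours.

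The promoters of 7 of the 9 genes, all but HLA-E and NLRC5, were matched by symbol in the RefSeq table of GRCh38.p14. PSMB9, whose window overlaps that of TAP1, is among the 7, but its sequence is not printed. The sequences below are shown because they are the stretches under most of the H3K4me3 peaks described further on, and because the heavy chain promoters can be compared letter by letter. They are reference sequence and not the alleles of LNCaP. Each runs 5′ to 3′ on the strand of its gene and ends at the base before the annotated start, and capitals mark matches, on either strand, to kappaB (GGG, 5 free bases, CC), ISRE (TTTC, 2 free bases, TTTC), CCAAT and TGACGC.
HLA-B, chr6:31357180-31357429, minus strand: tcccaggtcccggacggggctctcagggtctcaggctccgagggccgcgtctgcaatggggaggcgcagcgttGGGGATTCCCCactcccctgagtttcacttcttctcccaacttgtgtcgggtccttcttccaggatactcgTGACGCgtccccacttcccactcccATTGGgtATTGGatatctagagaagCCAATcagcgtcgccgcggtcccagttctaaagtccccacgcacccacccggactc
HLA-C, chr6:31272093-31272342, minus strand: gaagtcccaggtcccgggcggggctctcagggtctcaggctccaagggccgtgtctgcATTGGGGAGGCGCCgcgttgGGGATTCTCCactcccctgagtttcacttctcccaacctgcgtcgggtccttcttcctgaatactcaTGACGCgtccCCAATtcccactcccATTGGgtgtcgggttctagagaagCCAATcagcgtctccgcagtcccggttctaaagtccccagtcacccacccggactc
HLA-F, chr6:29723184-29723433, plus strand: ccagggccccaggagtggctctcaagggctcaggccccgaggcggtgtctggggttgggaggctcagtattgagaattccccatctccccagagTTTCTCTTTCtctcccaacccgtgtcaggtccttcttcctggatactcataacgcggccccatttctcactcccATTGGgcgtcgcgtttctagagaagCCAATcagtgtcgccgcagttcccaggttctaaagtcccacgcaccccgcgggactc
B2M, chr15:44711391-44711516, plus strand: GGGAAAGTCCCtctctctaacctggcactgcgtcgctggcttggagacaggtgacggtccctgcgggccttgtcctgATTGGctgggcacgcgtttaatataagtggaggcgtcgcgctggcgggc
TAP1, chr6:32853705-32853954, minus strand: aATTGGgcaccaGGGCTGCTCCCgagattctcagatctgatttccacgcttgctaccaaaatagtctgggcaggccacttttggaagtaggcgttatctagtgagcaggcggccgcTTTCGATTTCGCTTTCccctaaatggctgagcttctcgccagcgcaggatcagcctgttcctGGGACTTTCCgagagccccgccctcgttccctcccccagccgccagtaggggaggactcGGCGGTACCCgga
TAP2, chr6:32838740-32838989, minus strand: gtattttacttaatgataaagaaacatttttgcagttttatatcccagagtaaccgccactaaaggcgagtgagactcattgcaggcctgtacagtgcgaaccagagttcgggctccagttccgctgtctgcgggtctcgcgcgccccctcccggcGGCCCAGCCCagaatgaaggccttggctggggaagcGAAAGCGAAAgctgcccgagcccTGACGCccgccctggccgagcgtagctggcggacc

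The heavy chain promoters held the CCAAT pentamer at nearly the same place, at -56 to -52 from the start in HLA-B and HLA-C and at -57 to -53 in HLA-F. A TGACGC match, a pattern added after the sequences were read, lay at -106 to -101 in HLA-B and at -105 to -100 in HLA-C. HLA-F held none in its window. The kappaB pattern was found in HLA-B at -176 to -167 and in HLA-C at -172 to -163, and HLA-F held no match. HLA-F instead had an ISRE match at -156 to -147. In B2M only the 126 bases between its start and that of the divergent neighbour PATL2 are shown, with kappaB at -126 to -117; its ISRE matches lay just upstream of them, at -144 to -135 and -138 to -129. TAP1 carried 2 overlapping ISRE matches between -134 and -119, and TAP2 carried an ISRE match at -58 to -49.

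Of the 7 promoters, 4 held the ISRE pattern (HLA-F, B2M, TAP1 and TAP2), against 3.02% of 35116 promoters in the table. CCAAT was in 6 of 7, against 32% of promoters, and kappaB in 5 of 7, against 54.4%. The windows of TAP1 and PSMB9 overlap, and their CCAAT matches are the same bases read from both sides, so that element is counted for both genes. TGACGC was in 3 of 7 (HLA-B, HLA-C and TAP2), against 7.67%. It was picked from these same sequences, so its count here is no independent comparison with that percentage. The GC box GGGCGG was in 4 of 7, against 42.6%, and TATAAA in TAP2 alone, against 10.7%. No match was found for GAS (TTCNNNGAA, 6.57% of promoters), for TGACGNNA (6.55%) or for the E box CACGTG (6.34%). The percentages are over all 35116 promoter entries of the table, in the same window of 250 bases before the start, and a match is only a match of letters.

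An EZH2 library and a genome region stand apart and bear on what follows. The EZH2 library of sgPRKCI enzalutamide had a peak at 95.9% of the genes with H3K4me3 in that condition, against 10.1%, 11.9% and 26.2% in the EZH2 libraries of sgPRKCI DMSO, sgC enzalutamide and sgC DMSO. The mean coverage that the peak values imply was 0.842 to 1.56 for the H3K4me3 libraries and 1.13 to 1.68 for the EZH2 libraries, and was lowest in H3K4me3 of sgC DMSO. Of the 10 luminal prostate markers, 10 had an H3K4me3 peak in each condition, against 66.7% to 69.1% of all genes. A peak was called at 0 to 1 of 8 leukocyte markers (LYZ), 0 of 4 basal markers and 3 of 7 stromal and endothelial markers (COL1A1, CDH5 and VWF). PTPRC, CD3E, KRT5 and TP63 had none.

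HLA-B, HLA-C, HLA-E, HLA-F, TAP1, TAP2 and PSMB9 lie in the MHC region, in a window of 3.14 Mb on chromosome 6 from the start of HLA-F to the end of PSMB9 (29723434 to 32859851) that holds 122 protein-coding genes. The files also list peaks on 7 alternate MHC contigs, other versions of the same region, with 586 H3K4me3 peaks in sgPRKCI enzalutamide, 577 in sgPRKCI DMSO and 607 in sgC enzalutamide, against 566 in sgC DMSO. The chromosome 6 window itself held 69, 68, 72 and 71 H3K4me3 peaks in the same order. Genes of the window had a median H3K4me3 height of 37.4 to 46 times the mean coverage, against 115 to 147 for the other genes. The lower height was thus found over the window and not at the members alone, and the part of the alternate contigs in any value from this region was not tested. B2M on chromosome 15 and NLRC5 on chromosome 16 lie outside.

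H3K4me3 was called at these genes in nearly every library, H3K27me3 in a single case, and EZH2 at most of them in sgPRKCI enzalutamide but at B2M alone in the other conditions. H3K4me3 peaks were within 5 kb of 9 of 9 genes in sgPRKCI enzalutamide (69.1% of all genes), 9 in sgPRKCI DMSO (68.9%) and 9 in sgC enzalutamide (68.6%), against 8 in sgC DMSO (66.7%), where HLA-B had none. EZH2 peaks were within 5 kb of 6 genes in sgPRKCI enzalutamide (71% of all genes), 0 in sgPRKCI DMSO (10.4%) and 0 in sgC enzalutamide (14.2%), against 1 in sgC DMSO (23.1%). The 6 were HLA-C, B2M, TAP1, TAP2, NLRC5 and PSMB9, with TAP1 and PSMB9 counted at 1 shared peak. Their share was close to that of all genes but below the 95.9% of genes with H3K4me3 in that condition. The 1 in sgC DMSO was B2M. H3K27me3 peaks were within 5 kb of 0 genes in sgPRKCI enzalutamide (28.2% of all genes), 1 in sgPRKCI DMSO (30.2%) and 0 in sgC enzalutamide (29.6%), against 0 in sgC DMSO (26.9%). That single H3K27me3 peak lay inside NLRC5, the longest of the 9 genes.

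**Figure D1:**
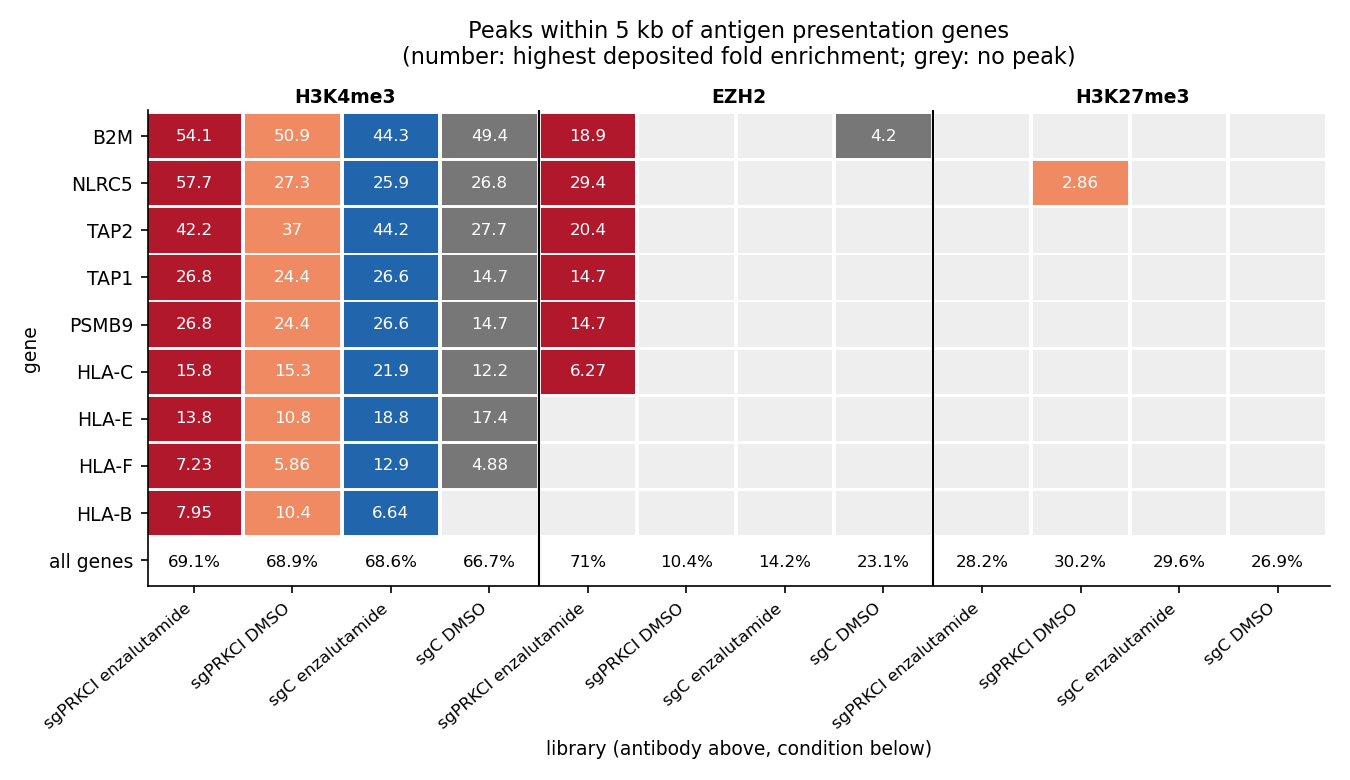
Peaks within 5 kb of the 9 genes (rows) in the 12 libraries (columns, grouped by antibody); a coloured cell is a called peak with its highest deposited fold enrichment, a grey cell is no peak, and the bottom row gives the percent of all protein-coding genes with a peak. H3K4me3 is missing from 1 cell, HLA-B in sgC DMSO, EZH2 appears at 6 genes in sgPRKCI enzalutamide and at B2M in sgC DMSO, and H3K27me3 appears once, at NLRC5 in sgPRKCI DMSO.

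The heavy chain genes had the lowest H3K4me3 of the 9 in 3 libraries, and in sgC DMSO too except that HLA-E stood above TAP1 and PSMB9. A summit height here is the number of overlapping fragments at the highest summit within 5 kb, recovered from the deposited values and divided by the mean coverage of its library; intervals are exact 95% Poisson intervals and cover counting error only, since PCR reads carry no molecular identifiers. At HLA-C (Gene ID 3107, chr6:31268749-31272092), a classical heavy chain, the H3K4me3 height was 32.3 in sgPRKCI enzalutamide, 27.1 in sgPRKCI DMSO and 35.3 in sgC enzalutamide, against 27.3 in sgC DMSO. The intervals of the 4 libraries overlapped, from 17.3 to 45.9 in all. HLA-C had 2 separate H3K4me3 peaks in each library. The peak at the start covered the promoter printed above in 3 of the libraries and had its upstream edge at -63 bp in sgC DMSO, and the other peak had its summit 932 to 1017 bp inside the gene.

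HLA-B (Gene ID 3106, chr6:31353875-31357179), the other classical heavy chain measured, had H3K4me3 heights of 12.9 in sgPRKCI enzalutamide, 18.1 in sgPRKCI DMSO and 10.3 in sgC enzalutamide, and no peak in sgC DMSO. These summits rested on 18, 22 and 16 fragments. The lowest H3K4me3 summit called anywhere in the sgC DMSO list had 8 fragments, a height of 9.5, which is close to the lowest HLA-B height, 10.3. The upstream edge of the HLA-B peaks lay between -578 and -504 bp from the start, so they spanned the whole printed promoter. Between 0.896% and 4.28% of the genes with H3K4me3 in a library had a lower height than HLA-B.

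HLA-E (Gene ID 3133, chr6:30489509-30494194), the nonclassical heavy chain recognised by the NKG2A receptor of natural killer cells, had heights of 28 in sgPRKCI enzalutamide, 18.9 in sgPRKCI DMSO and 30.1 in sgC enzalutamide, against 36.8 in sgC DMSO. The sgPRKCI DMSO library was the low one, with an interval of 12 to 28.4, against 25 to 52.3 in sgC DMSO. HLA-F (Gene ID 3134, chr6:29723434-29738532), another nonclassical heavy chain, had heights of 14.4 in sgPRKCI enzalutamide, 9.86 in sgPRKCI DMSO and 20.5 in sgC enzalutamide, against 10.7 in sgC DMSO. The summits in both DMSO libraries were the low ones and held 12 fragments in sgPRKCI and 9 in sgC, with intervals that overlapped those on enzalutamide. The HLA-F signal formed 2 peaks in both sgPRKCI libraries and 1 peak in both sgC libraries, of 1060 bp in sgC enzalutamide and 516 bp in sgC DMSO.

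B2M (Gene ID 567, chr15:44711517-44718145), the light chain shared by all class I molecules, had the highest H3K4me3 of the 9. Its height was 121 in sgPRKCI enzalutamide, 121 in sgPRKCI DMSO and 113 in sgC enzalutamide, against 107 in sgC DMSO. The 4 values differed by less than their counting intervals, which ran from 86 to 142. The peak was 1861 to 2077 bp wide and also covered the start of PATL2, which lies 126 bp away and is transcribed from the same stretch, so the mark cannot be given to either gene alone. EZH2 at B2M had a summit height of 54.9 in sgPRKCI enzalutamide and 10.4 in sgC DMSO, and no peak in sgPRKCI DMSO or sgC enzalutamide. The sgC DMSO peak was weak, with 14 fragments, a fold enrichment of 4.2 and a −log10 q of 4.44, just above the lowest −log10 q of 4.01 in that list, and it was lost at a −log10 q of at least 10.

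TAP1 and TAP2, the subunits of the peptide transporter, and PSMB9, a catalytic subunit of the immunoproteasome, lie together in the class II region. TAP1 (Gene ID 6890, chr6:32845209-32853704) and PSMB9 (Gene ID 5698, chr6:32854192-32859851) point away from each other across 487 bp, and 1 H3K4me3 peak of 1769 to 2038 bp covered both starts. Its height was 45.3 in sgPRKCI enzalutamide, 43.5 in sgPRKCI DMSO and 43 in sgC enzalutamide, against 30.9 in sgC DMSO. The sgC DMSO library was the low one, though its interval of 20.2 to 45.3 reached the other values. The 2 genes thus share their summit values in every library and count as 1 measurement. TAP2 (Gene ID 6891, chr6:32821831-32838739) had its own promoter peak, with heights of 76.9 in sgPRKCI enzalutamide, 66.6 in sgPRKCI DMSO and 71.8 in sgC enzalutamide, against 59.4 in sgC DMSO. Its summit stayed at 110 to 131 bp inside the gene. A lower peak, of height 14.1 to 20.5, lay at PSMB8, another immunoproteasome subunit, 529 bp from TAP1, and falls within the extended span of TAP1 in each library.

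NLRC5 (Gene ID 84166, chr16:56989557-57083520), the class I transactivator, had heights of 98.5 in sgPRKCI enzalutamide, 92.8 in sgPRKCI DMSO and 82.1 in sgC enzalutamide, against 80.8 in sgC DMSO. Both sgPRKCI libraries were above both sgC libraries, by less than the intervals, which ran from 62.7 to 116. The deposited fold enrichment of the same peak was 57.7 in sgPRKCI enzalutamide, against 27.3, 25.9 and 26.8 in sgPRKCI DMSO, sgC enzalutamide and sgC DMSO. That value is divided by a local background, which was recovered as 1.39 fragments in sgPRKCI enzalutamide and as 3.18, 3.99 and 1.57 fragments in the other 3 in the same order. These are fragments not scaled for depth. The mean coverage was 1.39 in sgPRKCI enzalutamide and 1.22, 1.56 and 0.842 in the other 3. The background thus equalled the mean coverage in sgPRKCI enzalutamide and lay above it in each of the others.

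**Figure D2:**
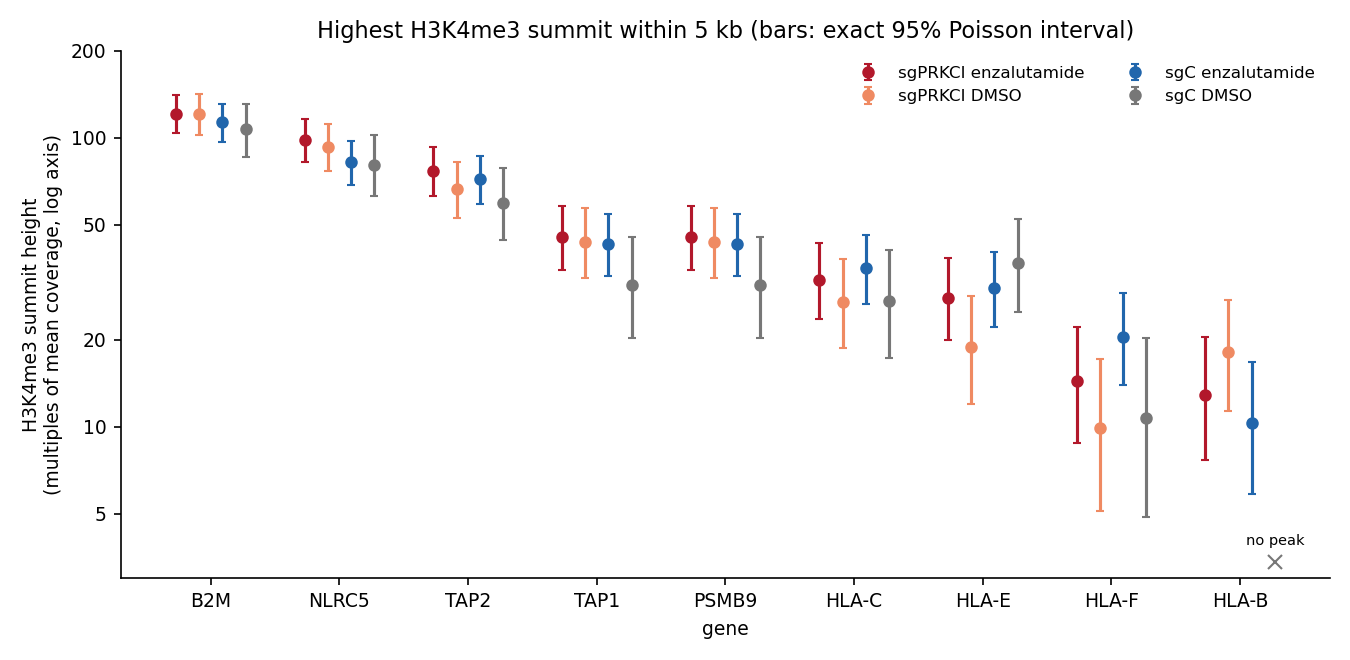
H3K4me3 height (vertical, log axis, multiples of the mean coverage of a library) of the 9 genes in the 4 conditions; points are single libraries, bars are exact 95% Poisson intervals, and the cross marks no peak. B2M and NLRC5, outside the MHC region, sit at 80.8 to 121, and the heavy chains HLA-B, HLA-C, HLA-E and HLA-F sit at 9.86 to 36.8.

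In order of H3K4me3 height, B2M stood first and NLRC5 second in each of the 4 libraries, followed by TAP2. The intervals of B2M and NLRC5 overlapped in every library. TAP1 with PSMB9 followed in 3 libraries, while in sgC DMSO HLA-E, at 36.8, was above TAP1, at 30.9, well within their intervals. The median over the genes with a peak was 45.3 in sgPRKCI enzalutamide, 43.5 in sgPRKCI DMSO and 43 in sgC enzalutamide, against 33.9 in sgC DMSO. These medians count the shared TAP1 and PSMB9 peak at both genes, and outside sgC DMSO they are the height of that peak. The sgC DMSO median is over 8 genes, without HLA-B. With the shared peak counted once it would be the HLA-E height of 36.8. The other medians would then lie between HLA-C and TAP1, at 32.3 and 45.3, 27.1 and 43.5, and 35.3 and 43. Over all genes with H3K4me3 the medians were 147, 118, 139 and 115 in the same order.

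**Figure D3:**
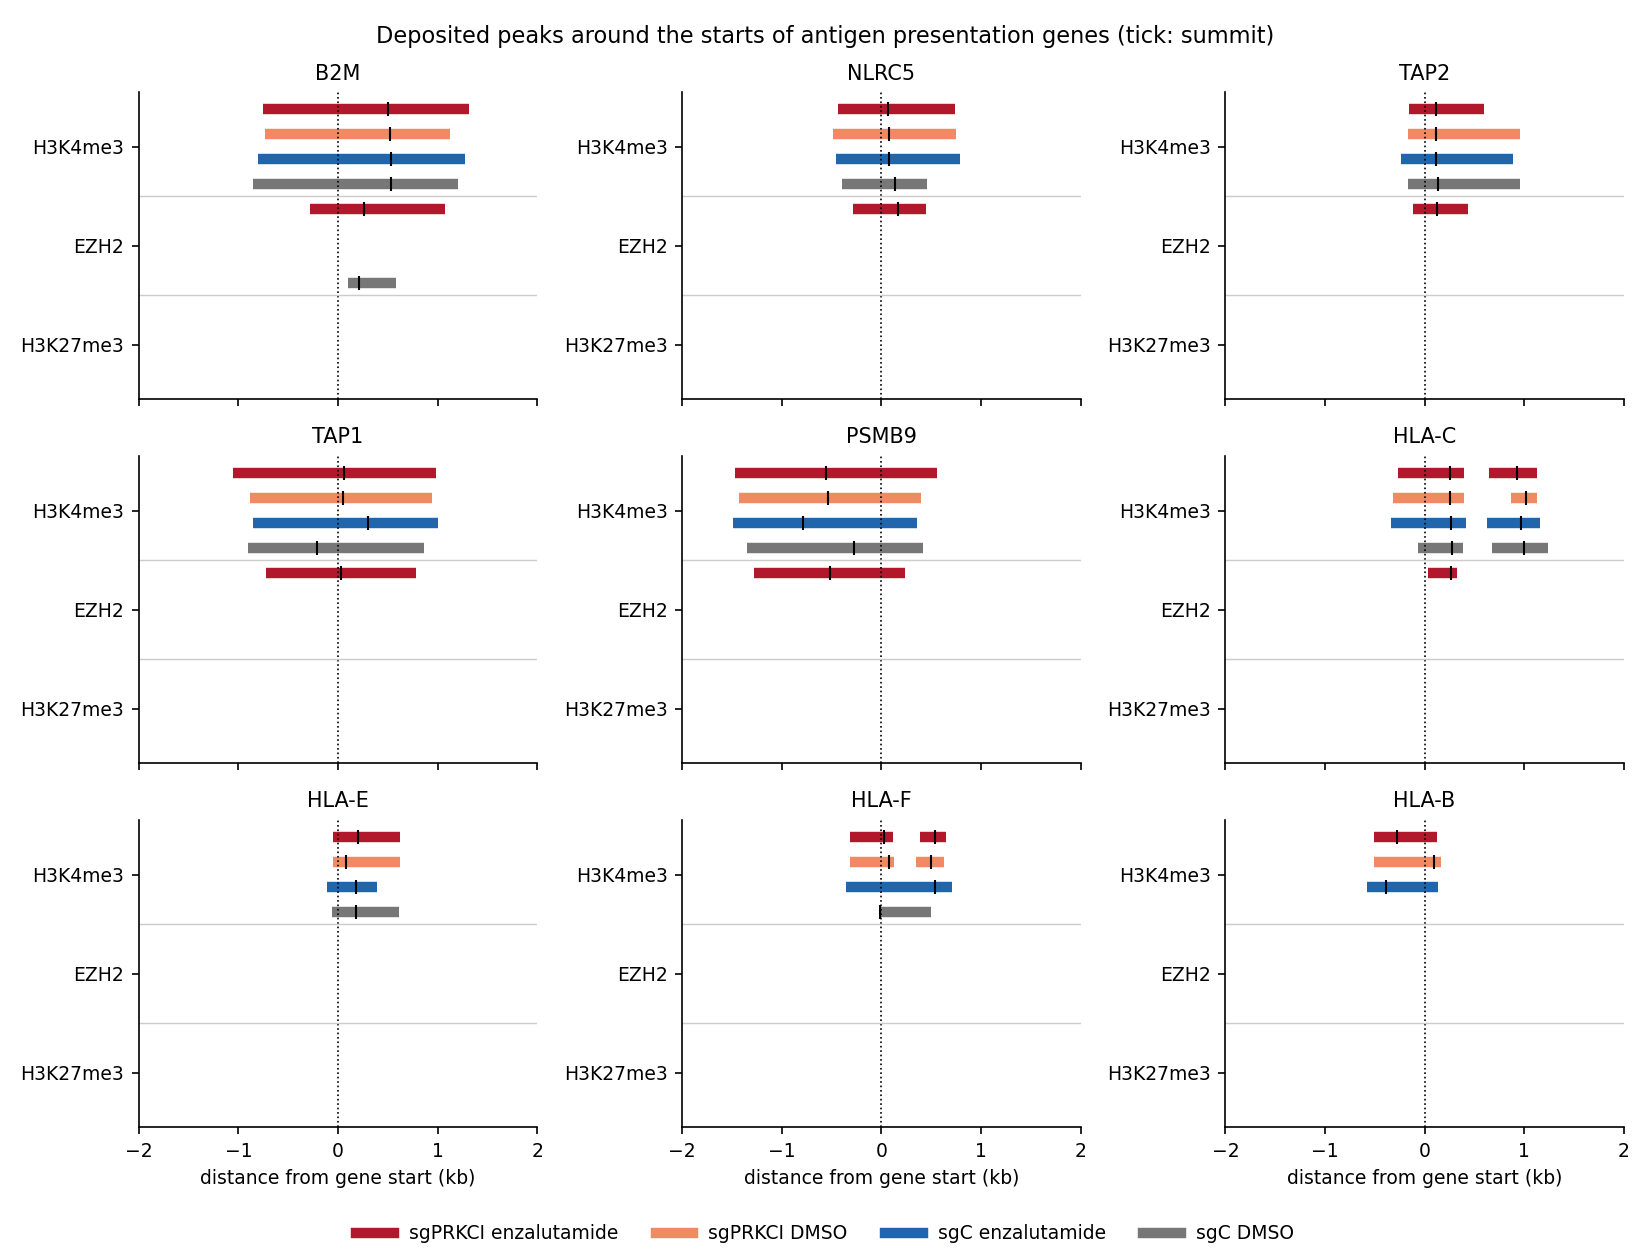
Deposited peaks from 2 kb upstream to 2 kb downstream of the start of each gene (horizontal axis, kb, in the direction of transcription; for HLA-E and NLRC5 from the lower-coordinate end), in rows for H3K4me3, EZH2 and H3K27me3, with a tick at each summit. The EZH2 peaks lie inside the H3K4me3 peaks; the H3K27me3 peak of NLRC5 is beyond the axis, 64977 bp from that end.

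Of the 4 comparisons between conditions, none moved the H3K4me3 height by 2-fold at any of these genes with a peak in both libraries. The median ratio of all genes lay above 0 in each comparison, so the ratios are read against it. With 1 library per condition, whether that shift came from the condition or from the library was not tested. On the log2 scale the median was 0.07 for sgPRKCI against sgC in DMSO and 0.28 for enzalutamide against DMSO in sgC. It was 0.31 for enzalutamide against DMSO in sgPRKCI and 0.09 for sgPRKCI against sgC on enzalutamide. Heights at least 2-fold higher were found at 0.333%, 0.303%, 0.346% and 0.576% of the genes compared in that order, and at least 2-fold lower at 0.151%, 0.159%, 0.155% and 0.103%, with 0 of the 9 genes in any of them. The intervals given with the ratios are exact 95% binomial intervals on fragment counts and compare libraries, not conditions. The comparisons share libraries, so their values are given side by side only.

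HLA-E had the log2 ratio farthest from the median. It was -0.96 (-1.81 to -0.14) for sgPRKCI against sgC in DMSO, from heights of 18.9 in sgPRKCI and 36.8 in sgC, and 0.159% of the 13225 genes compared had a lower ratio. On enzalutamide the same guide comparison gave -0.10 (-0.76 to 0.54), from 28 in sgPRKCI and 30.1 in sgC. Of the 34 ratios computed for these genes, this was the only 1 whose interval excluded 0, and it was singled out after its value was seen. HLA-F had a log2 ratio of 0.94 (-0.16 to 2.19) for enzalutamide against DMSO in sgC, from 32 fragments on enzalutamide and 9 in DMSO, and of 0.54 (-0.56 to 1.71) for the same drug comparison in sgPRKCI. Both intervals included 0. For sgPRKCI against sgC it was -0.12 (-1.49 to 1.31) in DMSO and -0.51 (-1.40 to 0.34) on enzalutamide, and the sign turned in both, to 0.76 and 0.41, when the heights of all HLA-F peaks were summed.

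The genes with the most fragments gave the narrowest intervals. For enzalutamide against DMSO in sgPRKCI, the log2 ratio was 0.01 (-0.32 to 0.34) at B2M, 0.08 (-0.29 to 0.46) at NLRC5 and 0.21 (-0.22 to 0.64) at TAP2. The same drug comparison in sgC gave 0.08 (-0.30 to 0.46) at B2M, 0.02 (-0.41 to 0.47) at NLRC5 and 0.27 (-0.22 to 0.79) at TAP2. The intervals at B2M, NLRC5 and TAP2 included both 0 and the median of all genes, and exclude a 2-fold difference between these libraries in either direction. TAP1 with PSMB9 gave 0.50 (-0.21 to 1.23) for sgPRKCI against sgC in DMSO and 0.48 (-0.20 to 1.19) for enzalutamide against DMSO in sgC. Both ratios rest on the same 26 fragments in the shallow sgC DMSO library.

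**Figure D4:**
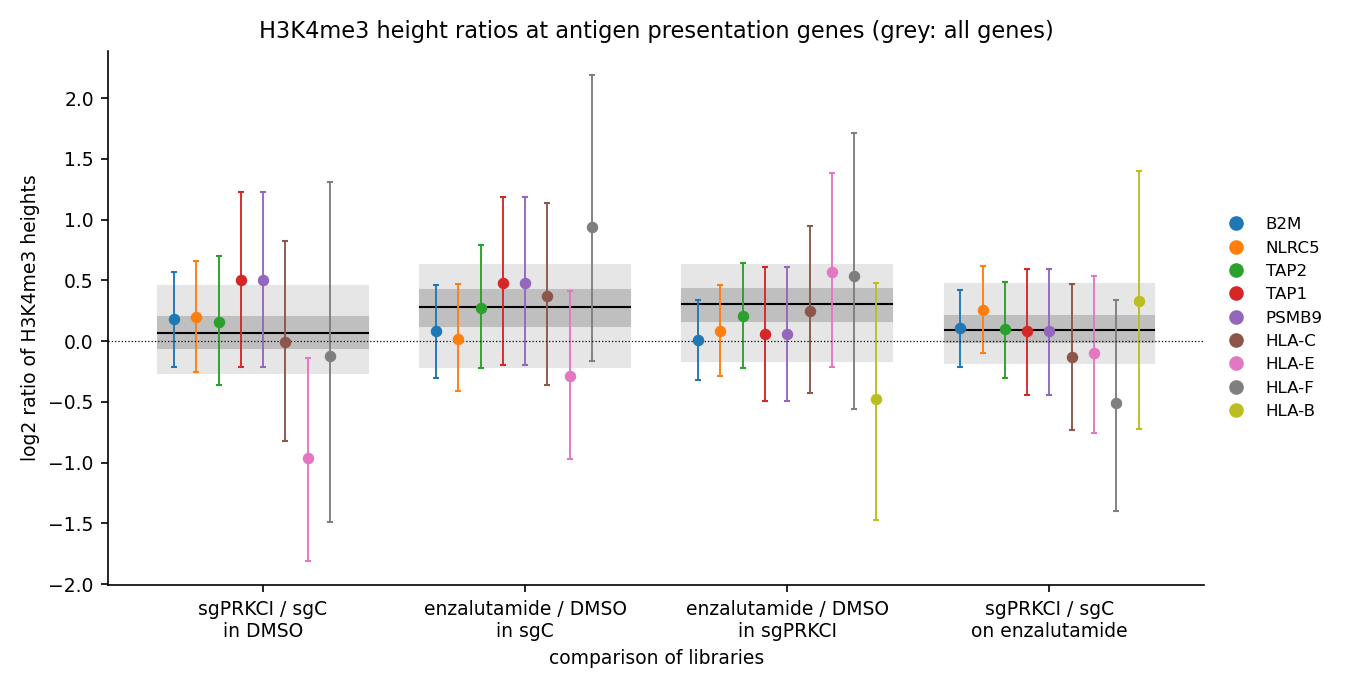
Log2 ratio of H3K4me3 heights (vertical) of the 9 genes in the 4 comparisons (horizontal); points are single library pairs with exact 95% intervals, the black line is the median of all genes with a peak in both libraries, and dark and light grey hold the central 50% and 90% of them. HLA-E in DMSO, at -0.96, is the point farthest below 0, and HLA-F in sgC, at 0.94, the farthest above.

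Changes in peak calls were few for H3K4me3. HLA-B counted as gained for sgPRKCI against sgC in DMSO, where 1 of 9 genes was gained (2.62% of all genes) and 0 lost (0.499%). It also counted as gained for enzalutamide against DMSO in sgC, where 1 was gained (2.35%) and 0 lost (0.534%). No call at the 9 genes changed for enzalutamide against DMSO in sgPRKCI (1.32% of all genes gained, 1.03% lost) or for sgPRKCI against sgC on enzalutamide (1.58% gained, 0.993% lost). Both HLA-B gains rest on the missing peak of the sgC DMSO library. At a −log10 q of at least 10 HLA-B also had no peak in sgC enzalutamide, so the gain with the drug in sgC was lost, and HLA-F counted as gained there in its place.

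EZH2 was called at 6 of the genes in sgPRKCI enzalutamide and nowhere else but B2M. Counted by comparison, 6 genes gained EZH2 for enzalutamide against DMSO in sgPRKCI (61% of all genes, 0.389% lost) and the same 6 for sgPRKCI against sgC on enzalutamide (58.6%, 1.86% lost). B2M counted as lost for sgPRKCI against sgC in DMSO (13.7% of all genes lost, 0.928% gained) and for enzalutamide against DMSO in sgC (11.4% lost, 2.49% gained). Each of these shares lies close to that of all genes. With the lists reduced to equal numbers of peaks EZH2 was called at 0 of the 9 in sgPRKCI enzalutamide, against 37.4% of all genes, and neither comparison with that library showed a gain, against changed calls at 43.5% and 44.9% of all genes. Without the sgPRKCI enzalutamide library the EZH2 calls at the 9 genes come to B2M in sgC DMSO alone. In the 3 other conditions 14766 genes, 73.7% of all, likewise had no EZH2 peak, as did 8 of these 9.

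In sgPRKCI enzalutamide the EZH2 summit lay inside the H3K4me3 peak at each of the 6. The EZH2 summit height was 54.9 at B2M, 50.3 at NLRC5, 36.6 at TAP2, 24.8 at the shared TAP1 and PSMB9 peak and 13.1 at HLA-C. The order is that of the H3K4me3 heights in the same condition. EZH2 height over H3K4me3 height was 0.404 at HLA-C, 0.452 at B2M, 0.476 at TAP2, 0.511 at NLRC5 and 0.548 at TAP1 with PSMB9, against a median of 0.51 over all genes with both. Over the 13284 genes with both peaks the log2 heights had a Pearson correlation of 0.94, across genes of 1 pair of libraries that share cells and caller, and genes are not independent replicates. HLA-B, HLA-E and HLA-F, with H3K4me3 heights of 12.9, 28 and 14.4, had no EZH2 peak. With the genes split into 4 groups of nearly equal size by H3K4me3 height, these 3 fall in the lowest group (7.91 to 85.5), where 84.3% had EZH2 and which also holds HLA-C, TAP1, TAP2 and PSMB9. B2M and NLRC5 are in the next group, where 99.9% had EZH2. The part of the wide EZH2 signal of this library in the 6 calls was not tested.

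**Figure D5:**
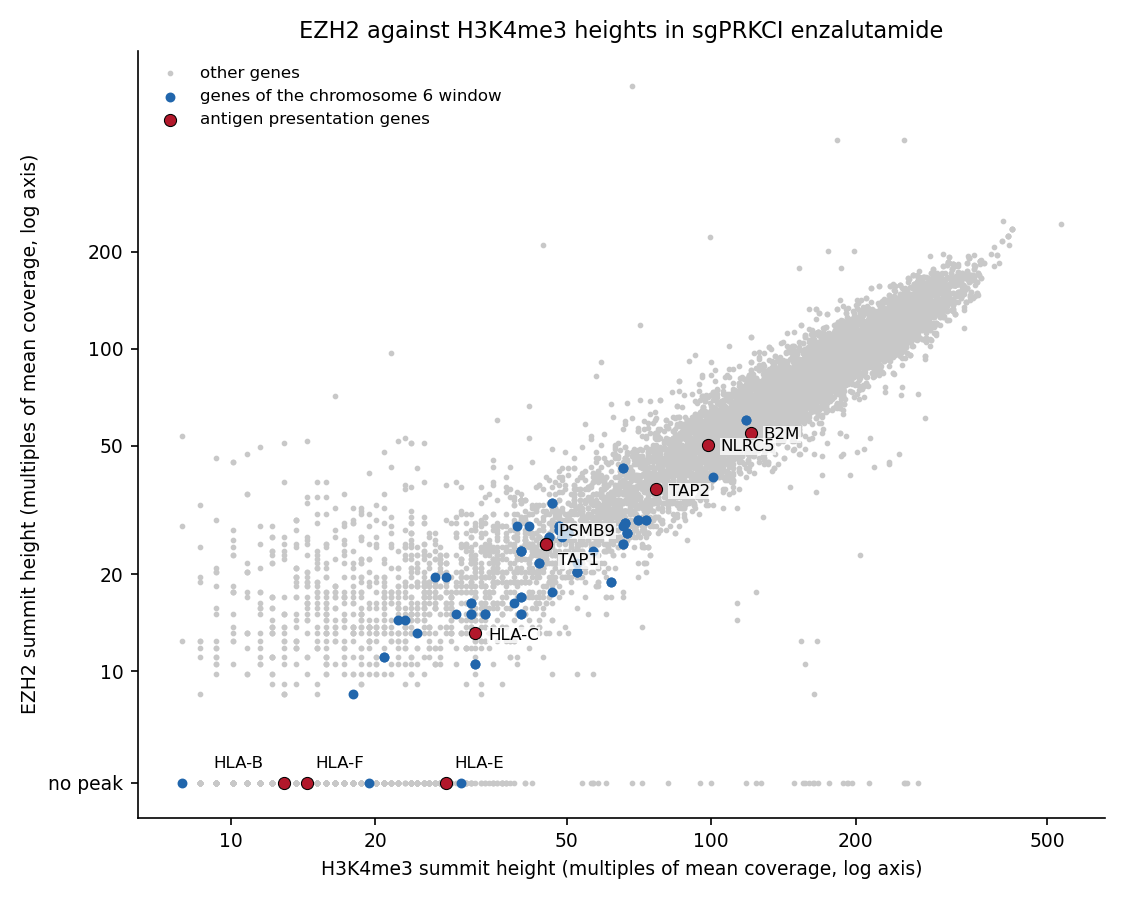
EZH2 height (vertical) against H3K4me3 height (horizontal), both in multiples of mean coverage on log axes, in the sgPRKCI enzalutamide libraries; each point is a gene with H3K4me3, the 9 genes are in red, other genes of the chromosome 6 window in blue, and genes with no EZH2 peak are on the bottom line. HLA-C, TAP1, PSMB9, TAP2, NLRC5 and B2M follow the band of all genes, and HLA-B, HLA-F and HLA-E are on the bottom line.

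Around the MHC genes EZH2 was missing over a long stretch in the other 3 libraries. The 3.14 Mb window held 58 EZH2 peaks in sgPRKCI enzalutamide and 0 in sgPRKCI DMSO, sgC enzalutamide and sgC DMSO. The nearest EZH2 peak outside the window was 2.47 Mb to the left and 1.28 Mb to the right in sgPRKCI DMSO, 1.44 and 0.95 Mb in sgC enzalutamide, and 1.44 and 0.929 Mb in sgC DMSO. The flanking stretches of the same length held 1 to 4 EZH2 peaks each in these 3 libraries, against 76 on the left and 63 on the right in sgPRKCI enzalutamide. On the alternate contigs EZH2 had 489 peaks in sgPRKCI enzalutamide, 0 in sgPRKCI DMSO and 6 in sgC enzalutamide, against 2 in sgC DMSO. EZH2 peaks over the whole of chromosome 6 numbered 976, 139, 402 and 316 in the same order.

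H3K27me3 was scarce at and around these genes. The only peak within 5 kb, at NLRC5 in sgPRKCI DMSO (chr16:57054534-57055665), was 1132 bp long, had a fold enrichment of 2.86 and a −log10 q of 1.59, and covered 1.09% of the extended gene. It lies inside the annotated span of NLRC5, far from the promoter, and was lost at a −log10 q of at least 2. NLRC5 thus counted as gained for sgPRKCI against sgC in DMSO (5.25% of all genes gained, 1.96% lost) and as lost for enzalutamide against DMSO in sgPRKCI (4.08% lost, 2.13% gained). In the other 3 libraries the nearest H3K27me3 peak was 265 to 266 kb from NLRC5. No call changed for enzalutamide against DMSO in sgC (4.39% gained, 1.65% lost) or for sgPRKCI against sgC on enzalutamide (2.37% gained, 3.77% lost).

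The distance to the nearest H3K27me3 peak differed between the genes. At B2M it was 393 to 394 kb in all 4 libraries. HLA-E and HLA-B had the mark closest among the heavy chains. At HLA-E a block of H3K27me3 of 1757 to 3983 bp ended 7.02 to 7.28 kb away in sgPRKCI enzalutamide, sgPRKCI DMSO and sgC enzalutamide, and in sgC DMSO the nearest peak was 14.5 kb away. At HLA-B it was 13.3 kb away in sgPRKCI enzalutamide, 13.3 kb in sgPRKCI DMSO and 12.9 kb in sgC enzalutamide, against 5.72 kb in sgC DMSO, where the peak was 191 bp long. HLA-C was 90.8 to 98.4 kb and HLA-F 264 to 591 kb from the nearest peak. For PSMB9 it was 156 kb in sgPRKCI enzalutamide, 10.3 kb in sgPRKCI DMSO and 85.9 kb in sgC enzalutamide, against 84.4 kb in sgC DMSO. The 10.3 kb value rests on a peak of 197 bp with a −log10 q of 1.66. H3K27me3 was called within 5 kb of 6.56% of the 122 genes of the chromosome 6 window in sgPRKCI enzalutamide, 5.74% in sgPRKCI DMSO and 5.74% in sgC enzalutamide, against 2.46% in sgC DMSO.

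Set against each other, the 2 histone marks put these genes on the H3K4me3 side, as they do most genes that carry H3K4me3. Of the 9, 7 had H3K4me3 in all 4 conditions and no H3K27me3 in any, as did 10213 genes, 51% of all. Among the 13167 genes with H3K4me3 in all 4 conditions, 77.6% had no H3K27me3 in any, against 7 of 8 here. The exceptions were HLA-B, for its missing H3K4me3 call, and NLRC5, for its H3K27me3 peak. No H3K4me3 peak of the 9 genes overlapped an H3K27me3 peak of its own condition. A mark at a promoter is not a transcript level, and RNA was not analysed here.

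Most of the other class I processing genes and interferon signalling genes carried H3K4me3, and fewer of the interferon-induced and class II genes did. Of 17 other class I processing genes, which include the chaperones CALR and CANX and the peptide editor TAPBP, 16 had H3K4me3 in each condition. That is 94.1%, against 66.7% to 69.1% of all genes. EZH2 was called at 15 in sgPRKCI enzalutamide (71% of all genes), 2 in sgPRKCI DMSO (10.4%) and 0 in sgC enzalutamide (14.2%), against 3 in sgC DMSO (23.1%). H3K27me3 was called at 1 or 2 in each, against 26.9% to 30.2% of all genes. The 3 with EZH2 in sgC DMSO were the peptide trimming enzymes ERAP1 and LNPEP, which share 1 peak of fold enrichment 6.84, and the transcription factor IRF1, with 10.2. Both ERAP1 and LNPEP also had EZH2 in sgPRKCI DMSO, and neither had it in sgC enzalutamide.

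Of 21 interferon signalling genes, 18 had H3K4me3 in sgPRKCI enzalutamide (69.1% of all genes), against 19 in each of the other conditions (66.7% to 68.9%). The gene that differed was IRF9, the DNA-binding part of the interferon complex ISGF3, with H3K4me3 heights of 12.3 in sgPRKCI DMSO and 16 in sgC enzalutamide, against 22.6 in sgC DMSO, and no peak in sgPRKCI enzalutamide. EZH2 was called at 18 in sgPRKCI enzalutamide (71% of all genes), 1 in sgPRKCI DMSO (10.4%) and 1 in sgC enzalutamide (14.2%), against 4 in sgC DMSO (23.1%). Those 4 were the kinase JAK1, the feedback inhibitor SOCS1, the adaptor MAVS and the NF-kappaB subunit RELA, with fold enrichments of 7.73, 6.16, 4.91 and 4.16. JAK1 was the 1 with EZH2 in all 4 libraries, and also the 1 with H3K27me3 in each, over 0.451% to 2.18% of its extended span. H3K27me3 was within 5 kb of 26.9% to 30.2% of all genes.

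Of 23 interferon-induced genes, 10 had H3K4me3 in sgPRKCI enzalutamide and 9 in each other condition, a share of 39.1% to 43.5% that is below that of all genes. The calls differed at the antiviral synthetase OAS1, which had no peak in sgC enzalutamide and heights of 41.6 to 43.1 elsewhere, at the tethering factor BST2, with a peak of height 11.5 in sgC enzalutamide alone, and at IFIT2, with a peak of height 9.34 in sgPRKCI enzalutamide alone. OAS2 was the 1 gene of the list that had H3K27me3 but lacked H3K4me3 in every condition (11.6% of all genes), with 4.05% to 4.45% of its extended span covered. EZH2 was called at 7 of the 23 in sgPRKCI enzalutamide (71% of all genes) and at 0 in each other condition (10.4% to 23.1%).

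Of 16 class II presentation genes, 6 had H3K4me3 in sgPRKCI enzalutamide (69.1% of all genes), 5 in sgPRKCI DMSO (68.9%) and 6 in sgC enzalutamide (68.6%), against 4 in sgC DMSO (66.7%). The calls differed at HLA-DQB1, a class II beta chain, with heights of 19.4, 12.3 and 16 in sgPRKCI enzalutamide, sgPRKCI DMSO and sgC enzalutamide and no peak in sgC DMSO. They also differed at CD74, the invariant chain, with heights of 15.1 in sgPRKCI enzalutamide and 10.9 in sgC enzalutamide and no peak in sgPRKCI DMSO or sgC DMSO. The lowest H3K4me3 height called in a list was 7.19 in sgPRKCI enzalutamide, 7.4 in sgPRKCI DMSO and 6.41 in sgC enzalutamide, against 9.5 in sgC DMSO. RFXANK, a subunit of the RFX complex that NLRC5 also uses, had heights of 195 to 249 and was the 1 class II gene with EZH2 in sgC DMSO (23.1% of all genes).

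Other genes had nearly the same pattern over the 12 libraries. By Euclidean distance over 12 scaled values (8 log2 heights and 4 H3K27me3 covers), the gene most like TAP2 was TTC27 at 0.03, against a median distance of 2.28 to all genes. For HLA-C it was FAM236B at 0.05, for TAP1 and PSMB9 RBM43 at 0.06, and for NLRC5 SHROOM3 at 0.07. HLA-B was closest to TRANK1 at 0.07, which also lacked a peak in sgC DMSO and had heights of 10.3 to 15.6 in the others. B2M and HLA-E were closest to BCAS4 and CYP3A43, both at 0.09. HLA-F stood farthest from its nearest gene, SLC4A9, at 0.24. BCAS4, like B2M, had EZH2 in sgPRKCI enzalutamide (height 54.2) and in sgC DMSO (height 11.1) and no peak in the others.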

How the data were processed

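CUT&RUN peak lists of 12 libraries from LNCaP cells were used, 1 per antibody and condition, while the 4 IgG libraries were not used here. The submitters' processing notes name MACS2, Bowtie2, SAMtools, Trimmomatic and FastQC, with no order or role, and the build GRCh38; versions and settings: not given in the sources used here. Per the files' layout, the authors deposited narrow peaks for H3K4me3 and EZH2 and broad peaks for H3K27me3, with 1 list per library. Whether the IgG libraries served as a control in the calling, and so enter the local background, is not given in the sources used here. Each deposited peak has a score, which is 10 times the −log10 q cut to a whole number, a fold enrichment ratio over a local background, and a −log10 p and −log10 q. The deposited summit offset, in bp, is the other column used. These values are the authors' and describe peaks within a list. The lowest −log10 q was 4 to 4.05 in the narrow lists and 1 to 1.02 in the broad lists.

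Whole fragments under each narrow summit were recovered from fold enrichment and −log10 p, to within 0.002 in −log10 p, for 99.6% to 100% of peaks; the EZH2 list of sgPRKCI enzalutamide needed a scale of 0.89. The lowest local background gave the mean coverage, the measure of depth; read totals were not used, and the depth of the broad lists is unknown. The recovery and the counting were checked on simulated data. Peaks of the assembled chromosomes (1 to 22, X, Y) were compared with RefSeq protein-coding genes of GRCh38.p14, with an overlap of at least 1 bp. That gene table gives no strand, so starts came from the promoter table; for HLA-E and NLRC5 distances run from the lower-coordinate end.

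The 9 genes, the gene lists, the motifs except TGACGC, and the alternatives were chosen with earlier results of these data known. Beyond the 9, list members were named if they had EZH2 in sgC DMSO, if their H3K4me3 call differed among conditions, or if they had H3K27me3 without H3K4me3 in all 4 conditions, up to 6 each. The most similar gene was sought over 100 kb away or on another chromosome. With 1 library per group no test was run. Python 3.11.15, numpy 2.4.6, pandas 2.3.3, scipy 1.17.1 and matplotlib 3.10.9 were used. Alternatives were a stricter q, equal numbers of peaks, other windows and overlaps, other height measures and scalings, and a fold of 1.5.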

Additional observations from a re-analysis of the deposited data

Results flagged for a closer look

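Peaks on 7 alternate versions of the MHC region were not used in the comparisons above, and they outnumber those of the chromosome 6 window. H3K4me3 had 586 such peaks in sgPRKCI enzalutamide, 577 in sgPRKCI DMSO and 607 in sgC enzalutamide, against 566 in sgC DMSO, or 42 to 122 per contig. Their median fold enrichment was 18, 15.8, 17.4 and 12.8 in the same order, and 18.8, 16.4, 19.1 and 12.9 in the chromosome 6 window. No annotation of these contigs was used, so no peak on them was assigned to HLA-B, HLA-C, HLA-E, HLA-F, TAP1, TAP2 or PSMB9, and their part in the values at these genes was not tested.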

How the results depend on the processing

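A count is given as the same below if it stayed within 1.5 times, and a log2 ratio if it moved by at most 0.5. By that measure 118 summary values stayed the same and 26 moved, and at single genes 98 stayed and 4 moved; no ratio of 2-fold or more changed sign, because none of the 9 genes had one. Signs of smaller ratios did change. Of the 34 H3K4me3 log2 ratios, 6 changed sign by deposited fold enrichment (of size up to 0.29 as reported), 10 under median scaling (up to 0.25) and 4 with summed heights (up to 0.51). The last include HLA-F in both guide comparisons, -0.12 by highest summit and 0.76 by summed heights for sgPRKCI against sgC in DMSO, and -0.51 and 0.41 on enzalutamide. HLA-E kept its sign for sgPRKCI against sgC in DMSO, at -0.68, -1.03 and -0.96 under these 3 settings.

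With a stricter −log10 q (10 for narrow and 2 for broad peaks) B2M lost its EZH2 peak in sgC DMSO (0 of 9, 12.4% of all genes), and the EZH2 changes resting on it went to 0 (7.59% and 6.93% of all genes). NLRC5 lost its H3K27me3 peak in sgPRKCI DMSO (0 of 9, 23% of all genes), its changes went to 0 (6.54% and 6.09%) and the highest cover to 0. HLA-C lost EZH2 in sgPRKCI enzalutamide, which left 5 genes (68.4% of all). HLA-F lost H3K4me3 in both DMSO libraries and HLA-B in sgC enzalutamide, which left 8 genes in sgPRKCI DMSO (67.2% of all genes) and 8 in sgC enzalutamide (66.8%), against 7 in sgC DMSO (64.9%). The H3K4me3 change for enzalutamide against DMSO in sgC was then at HLA-F and no longer at HLA-B (1 gene, 2.84% of all), with 1 for enzalutamide against DMSO in sgPRKCI (HLA-F, 2.18%) and 1 for sgPRKCI against sgC on enzalutamide (HLA-B, 2.44%).

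With equal numbers of peaks EZH2 was left at 0 of 9 genes in sgPRKCI enzalutamide (37.4% of all) and 0 in sgC DMSO (15%). EZH2 calls then changed at 0 of 9 in each comparison, against 43.5% of all genes for enzalutamide against DMSO in sgPRKCI, 44.9% for sgPRKCI against sgC on enzalutamide, 8.56% for sgPRKCI against sgC in DMSO and 8.34% for enzalutamide against DMSO in sgC. H3K4me3 calls changed at 2 genes for sgPRKCI against sgC in DMSO (HLA-B and HLA-F, 2.85% of all) and at 1 for enzalutamide against DMSO in sgPRKCI (HLA-F, 2.15%). Within 1 kb of the gene ends the NLRC5 H3K27me3 peak was out of range, so its counts went to 0 (17.6% of all genes in sgPRKCI DMSO). At least 2-fold was reached by HLA-E for sgPRKCI against sgC in DMSO under median scaling (1 gene, 0.461% of genes compared), and 1.5-fold by HLA-E there (1 gene, 3.31%) and by HLA-F for enzalutamide against DMSO in sgC (1 gene, 8.18%). By deposited fold enrichment 2-fold was reached by HLA-F for enzalutamide against DMSO in sgC (1 gene, 14.1%) and by NLRC5 for enzalutamide against DMSO in sgPRKCI (1 gene, 11.4%; log2 ratio 1.08) and for sgPRKCI against sgC on enzalutamide (1 gene, 11.6%; 1.16).

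No paired analysis was possible because each group has 1 library and the labels carry no replicate numbers, and no replicate was left out for the same reason. Depth limits HLA-B and HLA-F, whose summits rest on 9 to 32 fragments; a missing peak there says that none was called at that coverage. TAP1 and PSMB9 share 1 peak, and B2M shares its peak with PATL2.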
